A study of Mus musculus with 18 samples.

Results

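The circadian clock genes were examined in cultured mouse cortical astrocytes as a set of 10 genes, chosen by symbol from the deposited count table: *Arntl*, *Clock*, *Per1*, *Per2*, *Per3*, *Cry1*, *Cry2*, *Nr1d1*, *Nr1d2* and *Dbp*. They are 10 of the 51912 genes counted, and 10 of 10 were among the 24495 genes with enough reads to be tested. The cultures were pooled from cortices of newborn males and females in equal number, offspring of C57BL/6J and of hemizygous carriers of the Aldh1l1-EGFP/Rpl10a transgene (line JD130Htz, B6;FVB background), and control and ethanol dishes alike carried the transgene. The astrocyte promoter of *Aldh1l1* drives a green fluorescent ribosomal protein, so that ribosomes with their mRNA can be pulled down from transgene-expressing cells with antibodies to the tag (TRAP). After replating and a day without serum, dishes received serum-free medium with 50 mM ethanol (ethanol) or without it (control) for 24 h in sealed chambers. A chamber also held an open dish of 50 mM ethanol or of water, so control and ethanol dishes sat in different chambers. The number of chambers is not given in the sources used here, and a difference between chambers cannot be told apart from ethanol. The pull-down (IP) was sequenced from 6 control and 6 ethanol dishes, and the lysate before the pull-down (input) from 3 control and 3 ethanol dishes that also gave IP replicates 4, 5 and 6. Each dish was harvested after the 24 h, at a single time point. The clock time of harvest is not given in the sources used here, nor whether control and ethanol dishes were harvested at the same hour. A shift in the phase of a rhythm, a change of its mean level and a difference in harvest time between treatments cannot be told apart.

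The clock is a feedback loop of transcription. ARNTL (BMAL1) and CLOCK pair on E-box sequences and activate the *Per* and *Cry* genes, the nuclear receptor genes *Nr1d1* and *Nr1d2*, and *Dbp*, and PER and CRY proteins return to the nucleus to repress that activation. NR1D1 and NR1D2 (REV-ERB proteins) repress *Arntl* through ROR elements, and DBP with its relatives TEF and HLF activates genes through D-box sequences, *Per3* among them. Astrocytes keep such a loop of their own.

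Promoter windows from 250 bases before to 50 bases after the transcription start were taken from RefSeq on GRCm38.p6 for 9 of the 10 genes (13 windows). Each window was searched on both strands for the E-box CACGTG, the E-prime box CACGTT, the D-box TTATGTAA or TTACGTAA and the ROR element core TAGGTCA or TGGGTCA. Of 32851 windows of mouse genes, 7.15% held the E-box, 4.68% the E-prime box, 1.06% the D-box and 6.45% the ROR core. Among the 13 clock gene windows, 6 held at least 1 of these motifs and no motifs overlapped. The 4 windows below are shown because together they hold the 4 kinds of element, with the motifs in capitals.
*Per3*, chr4:151044616-151044915, minus strand: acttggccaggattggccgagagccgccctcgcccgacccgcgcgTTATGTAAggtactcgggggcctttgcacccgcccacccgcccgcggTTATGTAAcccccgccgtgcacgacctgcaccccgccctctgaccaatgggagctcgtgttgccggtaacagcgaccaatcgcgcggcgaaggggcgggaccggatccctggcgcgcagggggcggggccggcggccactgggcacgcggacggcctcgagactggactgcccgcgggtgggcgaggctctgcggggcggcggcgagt
*Cry1*, chr10:85185005-85185304, minus strand: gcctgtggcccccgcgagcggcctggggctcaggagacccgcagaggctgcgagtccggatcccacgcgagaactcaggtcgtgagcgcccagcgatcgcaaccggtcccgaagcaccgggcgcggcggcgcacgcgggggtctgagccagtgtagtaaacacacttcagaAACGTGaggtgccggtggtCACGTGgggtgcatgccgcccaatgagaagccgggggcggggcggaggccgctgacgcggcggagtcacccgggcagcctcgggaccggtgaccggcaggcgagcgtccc
*Nr1d1*, chr11:98775328-98775627, minus strand: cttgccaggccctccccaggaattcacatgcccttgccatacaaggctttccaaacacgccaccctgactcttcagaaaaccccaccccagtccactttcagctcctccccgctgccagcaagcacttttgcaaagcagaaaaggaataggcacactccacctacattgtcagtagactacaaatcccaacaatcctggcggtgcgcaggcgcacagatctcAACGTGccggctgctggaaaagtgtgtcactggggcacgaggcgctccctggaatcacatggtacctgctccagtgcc
*Arntl*, chr7:113207261-113207560, plus strand: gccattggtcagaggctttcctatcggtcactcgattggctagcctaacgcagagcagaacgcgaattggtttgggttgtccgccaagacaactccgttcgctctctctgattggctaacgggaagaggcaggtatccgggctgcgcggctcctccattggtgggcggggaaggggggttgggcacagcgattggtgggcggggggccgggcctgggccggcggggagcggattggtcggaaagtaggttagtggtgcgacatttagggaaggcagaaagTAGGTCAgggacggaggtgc

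The *Per3* window held the D-box TTATGTAA at 2 places, 205 and 158 bases before the start. The *Cry1* window held an E-prime box 79 bases and an E-box 60 bases before the start, and the *Nr1d1* window an E-prime box 28 bases before it. In the second of the *Arntl* windows the ROR core lay 30 bases after the start. The first of the *Per1* windows held an E-box and the *Cry2* window an E-prime box, both before the start. The second of the *Per1* windows held none of the motifs. The windows of *Clock*, *Nr1d2* and *Dbp* held none of these letters, which says nothing of sites elsewhere in the genes.

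The libraries held 74239854 to 132810705 read pairs on genes, and the clock genes 1097 to 10372 read pairs each per library. Levels are given in CPM, read pairs scaled to the library total after TMM, which corrects the totals for differences in composition. The 6 astrocyte markers, *Aldh1l1* and *Slc1a3* among them, summed to 955 to 1018 CPM in input and 1522 to 1695 CPM in IP, and 6 of 6 were higher in IP. Microglial markers summed to 52.1 to 65.9 CPM in input and 8.50 to 11.7 CPM in IP, fibroblast markers to 232 to 238 and 116 to 137 CPM, neuronal markers to 88.8 to 99.8 and 103 to 124 CPM, endothelial and mural markers to 138 to 144 and 96.6 to 106 CPM (1 of 6 at 0), and oligodendrocyte lineage markers to 6.05 to 7.66 and 3.09 to 3.90 CPM. The sums hide markers that went the other way. In IP 0 microglial markers were called higher and 5 lower, 1 fibroblast marker higher and 4 lower, and 3 neuronal markers higher and 1 lower. Of the oligodendrocyte lineage markers 0 were higher and 4 lower. Of the endothelial and mural markers 2 were higher and 1 lower, and their sum was mostly *Pdgfrb* (137 CPM in control input, 94.5 in control IP). Dishes are separate, but nothing says that they came from separate litters or, within a treatment, stood in separate chambers. The p-values thus measure the spread between dishes. In such bulk samples fewer cells of a type and less RNA per cell cannot be told apart.

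Per kilobase of exon, the output gene *Dbp* and the REV-ERB genes stood highest among the clock genes, and the *Per* genes and activators lowest. In IP of control dishes the levels per length were 21.3 ± 0.41 CPM per kb (SD, n = 6) for *Dbp*, 19.6 ± 0.60 for *Nr1d1* and 13.5 ± 0.45 for *Nr1d2*. The ranges of these 3 genes did not overlap those of their neighbours in the order. *Cry2* followed with 5.63 ± 0.13 CPM per kb and *Cry1* with 5.09 ± 0.34, and their ranges overlapped. *Per1* (3.98 ± 0.24 CPM per kb) and *Clock* (3.88 ± 0.18) also overlapped, above *Arntl* (3.39 ± 0.16), *Per2* (2.74 ± 0.26) and *Per3* (1.93 ± 0.067). The lower ranks depend on the length used: with the longest transcript in place of all exons, 5 of the 10 genes kept their rank and *Arntl* moved from rank 8 to rank 5 with 6.39 CPM per kb. Among control IP dishes the coefficient of variation ran from 1.90% for *Dbp* to 9.39% for *Per2*.

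**Figure D1:**
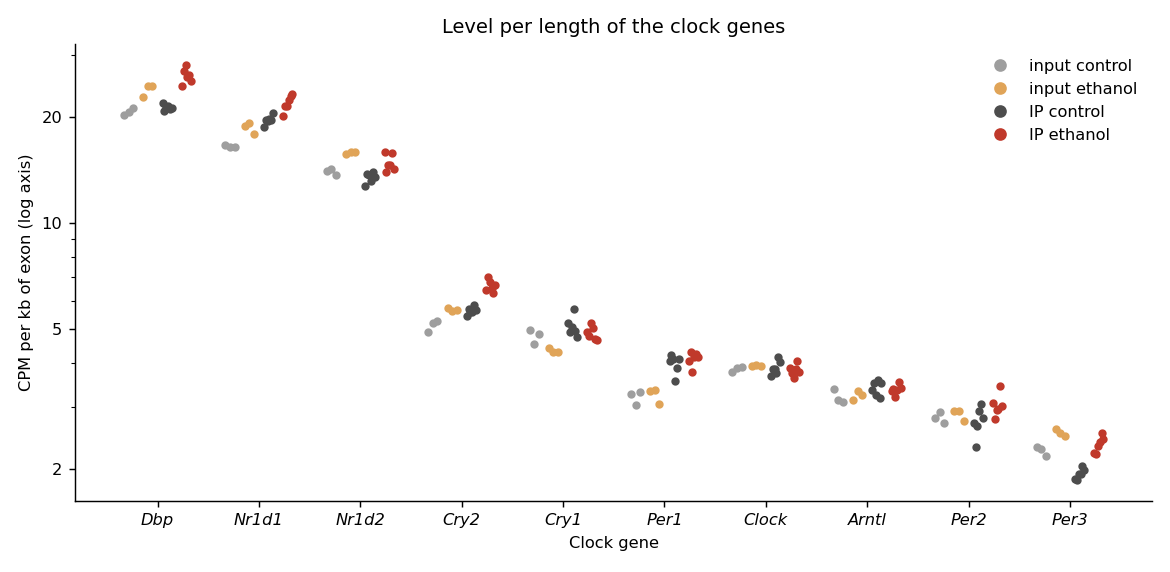
Levels of the 10 clock genes in CPM per kb of exon (y axis, log scale), 1 point per library, coloured by fraction and treatment (3 libraries per input group, 6 per IP group). *Dbp*, *Nr1d1* and *Nr1d2* sit at 12.8 CPM per kb or more in every library, and the other 7 genes at 7.02 or less.

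Ethanol-exposed dishes were compared with control dishes within each fraction to ask which clock genes respond to ethanol. In IP, 6 of the 10 clock genes were higher with ethanol and 0 lower: *Dbp*, *Per3*, *Cry2*, *Nr1d1*, *Per2* and *Nr1d2*, by 10.7% to 23.6%. Over all 24495 genes, 21.4% were called at an adjusted p below 0.05 in edgeR's quasi-likelihood test, 11.9% higher and 9.48% lower. *Arntl*, *Clock*, *Per1* and *Cry1* did not pass. The median log2 fold change of the 10 genes was 0.15, against 0.0054 over all genes tested. In input 5 were higher and 0 lower, the same genes without *Per2*, where 15.0% of all genes were called, 7.21% higher and 7.78% lower. The median there was 0.09, against -0.00092 over all genes. Input had 6 libraries and IP 12. In IP replicates 4 to 6 alone, from the dishes that gave input, the same 5 genes were called as in input. *Per2* was not (0.10, adjusted p = 0.239, edgeR), and 3714 of all 24495 genes were called. The changes were small: tested against a minimum fold of 1.2 in edgeR, 0 of the 10 passed in either fraction (1 at an unadjusted p below 0.05 in IP, *Dbp*, and 0 in input), while 95 genes (0.388%) passed in IP and 55 (0.225%) in input. Marker sums also moved with ethanol. The astrocyte sum went from 1522 to 1593 CPM in control to 1622 to 1695 CPM in ethanol IP dishes (3 of 6 called higher, 0 lower), and from 955 to 999 CPM to 1000.0 to 1018 CPM in input, where 3 were called higher and 3 lower, *Aldh1l1* among the latter (189 to 173 CPM). The neuronal sum, nearly all *Stmn2*, went from 115 to 124 CPM to 103 to 111 CPM in IP (0 of 6 called higher, 1 lower) and from 97.1 to 99.8 CPM to 88.8 to 92.7 CPM in input (1 higher, *Slc17a7* at 0.26 and 0.51 CPM, and 1 lower). In input the oligodendrocyte lineage sum went from 6.05 to 6.63 CPM to 6.96 to 7.66 CPM (1 of 6 called higher, 0 lower). Of the microglial markers 1 was called higher and 0 lower in each fraction. Of the endothelial and mural markers 0 were called higher and 1 lower in each fraction. Of the fibroblast markers 1 was called higher in IP and 0 in input, and 0 lower in either. The part of these markers' cells in the changes of the clock genes was not tested.

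**Figure D2:**
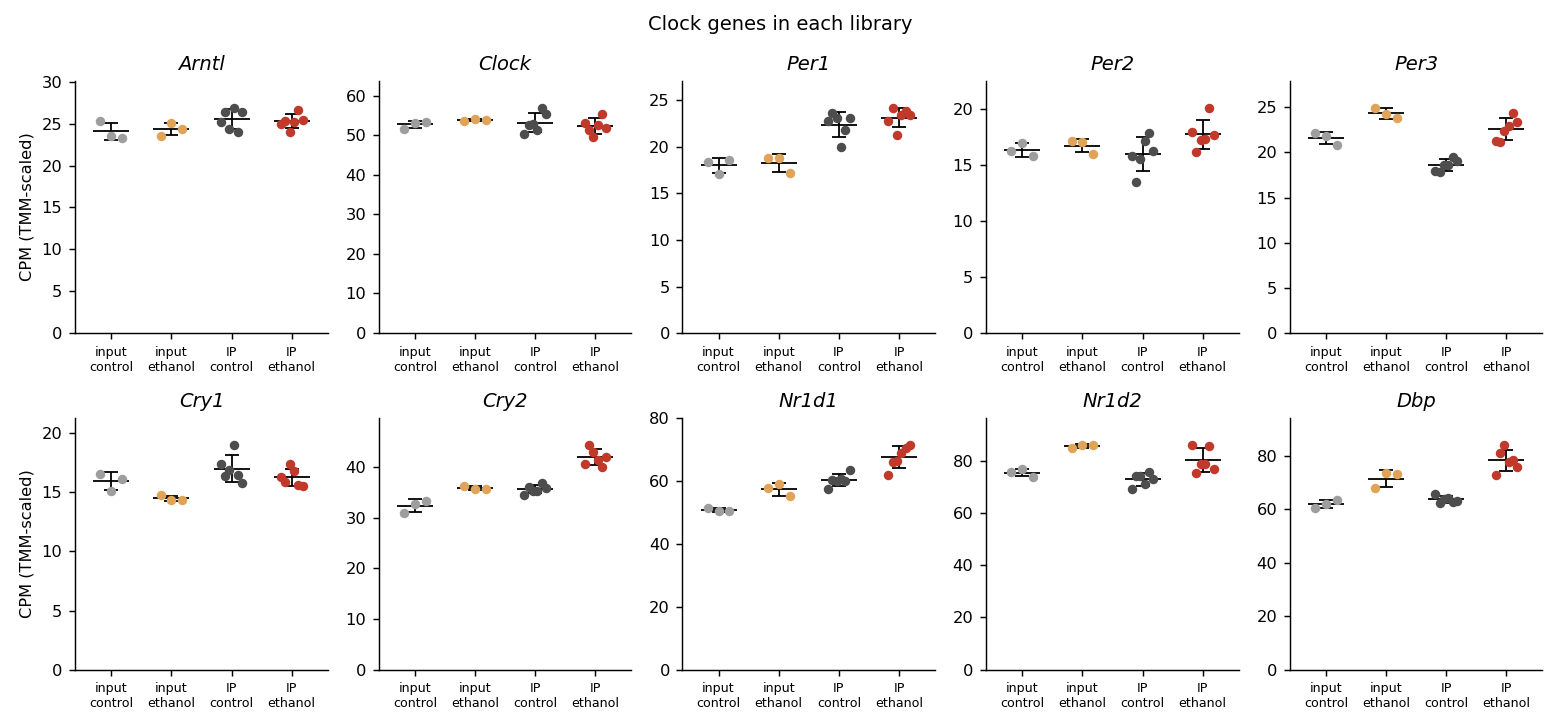
CPM of each clock gene (y axis, from 0) in the 18 libraries, 1 panel per gene, with 1 point per library and black bars for mean ± SD of each group (input n = 3, IP n = 6). For *Dbp*, *Per3* and *Cry2* every ethanol IP dish lies above every control IP dish, whereas *Arntl* and *Clock* stay level.

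*Dbp* (chromosome 7, 45705088 to 45710203, plus strand, GRCm38) encodes a transcription factor that carries the clock's output through D-boxes. Control IP dishes ranged from 62.3 to 65.8 CPM with a median of 63.6, and ethanol IP dishes from 73.0 to 84.2 CPM with a median of 78.2. The groups did not overlap, which holds for 3 of the 10 clock genes in IP and for 9.96% of all genes (5.09% with ethanol above and 4.87% below). *Dbp* was higher with ethanol by 0.31 on the log2 scale (SE 0.028, adjusted p = 4.27e-13 in edgeR's quasi-likelihood test), the largest of the 10 in this fraction. In input the control dishes had 60.7, 62.0 and 63.5 CPM and the ethanol dishes 68.0, 73.5 and 73.2 CPM, again with no overlap (log2 fold change 0.20, SE 0.030, adjusted p = 8.01e-10).

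*Per3* (chromosome 4, 151003652 to 151044665, minus strand), the period gene with the D-boxes shown above, had 17.8 to 19.5 CPM in control IP dishes (median 18.6) and 21.2 to 24.3 CPM in ethanol IP dishes (median 22.6). These ranges did not overlap, and the difference was 0.29 on the log2 scale (SE 0.038, adjusted p = 2.39e-08, edgeR). In input the values were 22.1, 21.8 and 20.8 CPM in control and 24.9, 24.2 and 23.8 CPM in ethanol dishes (log2 fold change 0.17, SE 0.046, adjusted p = 0.0038). Without input control replicate 6 the input call was lost (0.14, adjusted p = 0.061).

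*Per2* (chromosome 1, 91415982 to 91459324, minus strand) and *Per1* (chromosome 11, 69095217 to 69109960, plus strand) encode the other period repressors and moved less. *Per2* had 13.5 to 17.9 CPM in control IP dishes (median 16.1) and 16.2 to 20.1 CPM in ethanol IP dishes (median 17.5). The ranges overlapped, and the increase of 0.16 (log2, SE 0.055, adjusted p = 0.0422, edgeR) was the least firm of the 6 calls. The call was lost without any single library other than IP control replicates 4 and 5 and IP ethanol replicate 2 (9 of 12 omissions, adjusted p up to 0.102). It was also lost with total counts as scaling (adjusted p = 0.0679), with RLE, another scaling (0.0533), and on the sense strand (0.0553). The same held after GC and length trends were removed (0.10, adjusted p = 0.294) and in IP replicates 4 to 6 alone (0.10, adjusted p = 0.239). In input *Per2* had 16.3, 17.0 and 15.8 CPM in control and 17.1, 17.1 and 16.0 CPM in ethanol dishes (log2 fold change 0.03, 95% interval -0.07 to 0.14, adjusted p = 0.813).

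*Per1* had 20.0 to 23.7 CPM in control IP dishes (median 22.9) and 21.3 to 24.2 CPM in ethanol IP dishes (median 23.4), with a log2 fold change of 0.05 (95% interval -0.02 to 0.13, adjusted p = 0.366, edgeR). Its sign turned with the dishes used, and neither part was called in edgeR. The change was -0.02 in IP replicates 1 to 3 (unadjusted p = 0.646, adjusted p = 0.866). In replicates 4 to 6 it was 0.13 (unadjusted p = 0.0122, adjusted p = 0.0718). In input the values were 18.4, 17.1 and 18.6 CPM in control and 18.8, 18.8 and 17.2 CPM in ethanol dishes, and the groups overlapped.

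The cryptochrome genes, whose products are the strongest repressors of the loop, parted. *Cry2* (chromosome 2, 92403646 to 92434043, minus strand) had 34.4 to 36.9 CPM in control IP dishes (median 35.5) and 40.0 to 44.4 CPM in ethanol IP dishes (median 41.6). The groups did not overlap, and the log2 fold change was 0.24 (SE 0.031, adjusted p = 7.61e-09, edgeR). In input the control dishes had 30.9, 32.8 and 33.3 CPM and the ethanol dishes 36.3, 35.6 and 35.7 CPM (0.15, SE 0.039, adjusted p = 0.00235), a call lost without input control replicate 4 (0.11, adjusted p = 0.0651).

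*Cry1* (chromosome 10, 85131700 to 85185064, minus strand), whose promoter window holds the E-box and E-prime box, had 15.8 to 19.0 CPM in control IP dishes (median 16.7) and 15.5 to 17.4 CPM in ethanol IP dishes (median 16.1). Its log2 fold change was -0.06 (95% interval -0.14 to 0.03, adjusted p = 0.41, edgeR). In input the control dishes had 16.6, 15.1 and 16.1 CPM and the ethanol dishes 14.7, 14.3 and 14.4 CPM. The ethanol dishes all lay below the control dishes, yet the log2 fold change of -0.14 (95% interval -0.25 to -0.03) did not pass (adjusted p = 0.0678). It passed in 1 omission only, without input control replicate 5 (-0.18, adjusted p = 0.0391).

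The REV-ERB genes, repressors of *Arntl*, rose in both fractions by similar amounts. *Nr1d1* (chromosome 11, 98767932 to 98775333, minus strand) had 57.5 to 63.3 CPM in control IP dishes (median 60.3) and 61.9 to 71.5 CPM in ethanol IP dishes (median 67.6). The ranges met at their ends, and the log2 fold change was 0.17 (SE 0.030, adjusted p = 9.64e-06, edgeR). In input it had 51.4, 50.5 and 50.5 CPM in control and 57.9, 59.0 and 55.1 CPM in ethanol dishes (0.17, SE 0.032, adjusted p = 3.23e-06).

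*Nr1d2* (chromosome 14, 18204054 to 18239127, minus strand) had 69.0 to 75.7 CPM in control IP dishes (median 73.5) and 75.4 to 86.1 CPM in ethanol IP dishes (median 78.8). Only the ends of these ranges overlapped, and the log2 fold change was 0.15 (SE 0.030, adjusted p = 0.00014, edgeR). In input the control dishes had 75.8, 76.7 and 74.0 CPM and the ethanol dishes 84.9, 85.9 and 86.1 CPM (0.18, SE 0.028, adjusted p = 9.78e-09).

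The activator genes were not called in either fraction. *Arntl* (chromosome 7, 113207465 to 113314126, plus strand), the target of the REV-ERB proteins, had 24.0 to 26.9 CPM in control IP dishes (median 25.8) and 24.0 to 26.6 CPM in ethanol IP dishes (median 25.3). Its log2 fold change was -0.01 with a 95% interval of -0.08 to 0.06 (adjusted p = 0.927, edgeR). In input the values were 25.3, 23.5 and 23.3 CPM in control and 23.6, 25.1 and 24.3 CPM in ethanol dishes (0.01, 95% interval -0.08 to 0.10).

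*Clock* (chromosome 5, 76209868 to 76304792, minus strand) had 50.3 to 56.9 CPM in control IP dishes (median 52.7) and 49.6 to 55.5 CPM in ethanol IP dishes (median 52.2), a log2 fold change of -0.02 (95% interval -0.08 to 0.04, adjusted p = 0.777, edgeR). With GC and length trends removed the IP change was -0.06 and still not called (unadjusted p = 0.0131, adjusted p = 0.058, edgeR). In input it had 51.7, 53.1 and 53.4 CPM in control and 53.6, 54.1 and 53.8 CPM in ethanol dishes. The ethanol dishes lay just above the control dishes, by a log2 fold change of 0.03 (95% interval -0.04 to 0.09) that did not pass. Groups that do not overlap are common with 3 dishes each, as in 7 of the 10 clock genes and 27.1% of all genes in input (14.0% above and 13.1% below).

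As a reading of output against activator, the ratio of *Dbp* to *Arntl* unstranded read pairs was taken within each library, where it does not depend on library scaling. It was 2.36 to 2.63 in control IP dishes (2.50 ± 0.13, SD, n = 6) and 2.92 to 3.50 in ethanol IP dishes (3.11 ± 0.22). In input it was 2.40, 2.63 and 2.72 in control and 2.88, 2.93 and 3.01 in ethanol dishes. The height of the ratio depends on how strands are counted. Over the 18 libraries the sense strand held 178% of the unstranded pairs for *Dbp* and 108% for *Arntl*. The ratio was higher with ethanol in every dish of both fractions, which follows from the changes of *Dbp* above and is given as a description.

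**Figure D3:**
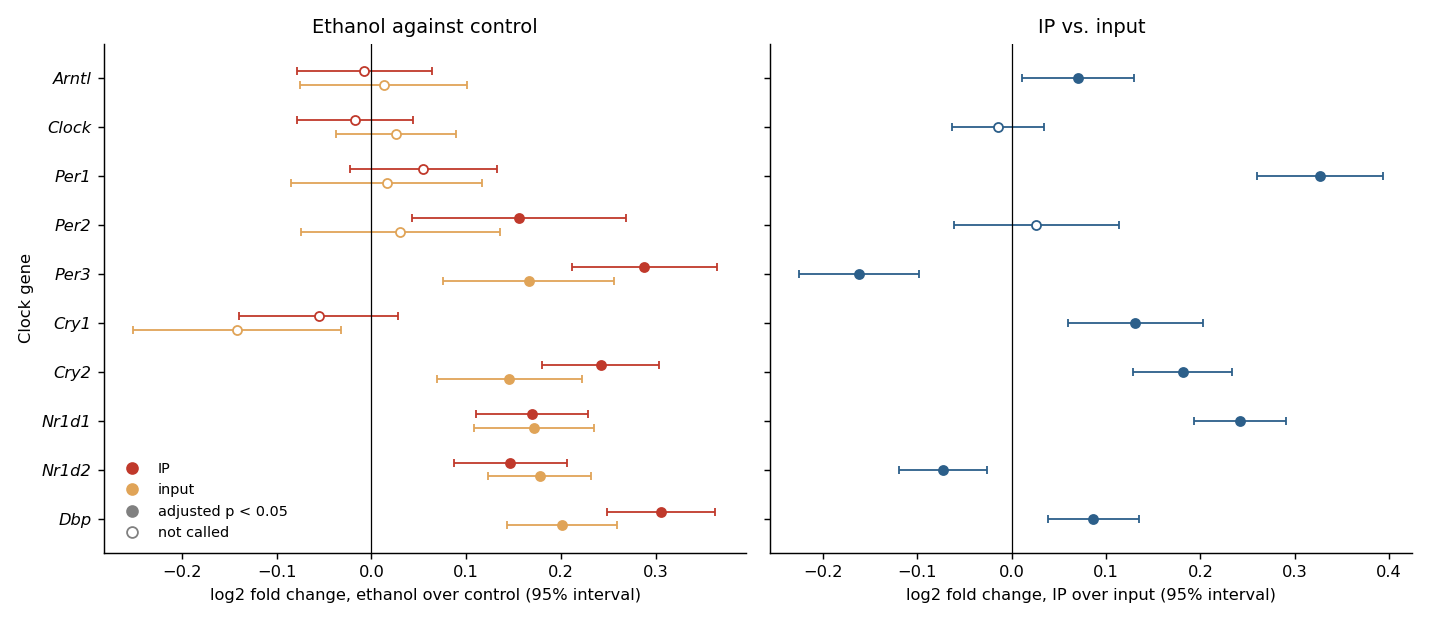
Fitted log2 fold changes of the 10 clock genes with 95% intervals: ethanol over control in IP (red) and input (orange) on the left, and IP over input on the right, with filled points at an adjusted p below 0.05. On the left *Dbp*, *Per3* and *Cry2* reach 0.24 to 0.31 in IP while *Arntl* and *Clock* lie within 0.03 of 0.

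Whether ethanol acted differently on the ribosome-bound and the total pool was tested as an interaction of fraction and treatment over the 18 libraries, taken as independent. The difference (IP minus input) was called for 0 of the 10 clock genes in edgeR's quasi-likelihood test, and for 0 of 24495 genes (0%), with 0 clock genes and 1459 genes at an unadjusted p below 0.05. DESeq2 called 2 genes, 0 of them clock genes. The largest differences were 0.11 on the log2 scale for *Per3* (95% interval -0.01 to 0.24) and for *Per2* (-0.06 to 0.29), 0.09 for *Dbp* (unadjusted p = 0.0513, adjusted p = 0.83) and 0.08 for *Cry2* (-0.02 to 0.19). *Nr1d1* differed by -0.01 (-0.11 to 0.08) and *Nr1d2* by -0.04 (-0.14 to 0.05). When only the 12 libraries of dishes that gave input and IP were used and each dish was a block, 102 genes (0.416%) were called and again 0 clock genes, although *Per3* (0.15) and *Dbp* (0.10) had unadjusted p-values of 0.0209 and 0.0239 (adjusted 0.501 and 0.52). With GC and length trends also removed in that edgeR fit, 51 genes and 0 clock genes were called. *Per3* then had 0.097 (unadjusted p = 0.119) and *Dbp* 0.058 (unadjusted p = 0.133).

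IP vs. input was compared over all 18 libraries to ask how the clock mRNAs were split between the ribosome pull-down and the lysate. This fit had treatment as a term and took the libraries as independent, although 12 of them came in pairs from the same dishes. Of the 10 genes, 6 were higher and 2 lower in IP, where 51.0% of all genes were called (25.2% higher and 25.8% lower). *Per1* stood furthest toward IP, with 17.1 to 18.8 CPM in the 6 input and 20.0 to 24.2 CPM in the 12 IP libraries. It was the only clock gene whose fractions did not overlap (25.0% of all genes), was higher in IP by 0.33 (log2, SE 0.034, adjusted p = 1.05e-13, edgeR) and was the only clock gene to pass against a fold of 1.2 (adjusted p = 0.0407), where 4936 of all genes (20.2%) passed. *Nr1d1* (0.24, adjusted p = 6.04e-14), *Cry2* (0.18, adjusted p = 9.54e-09), *Cry1* (0.13, adjusted p = 0.00128) and *Dbp* (0.09, adjusted p = 0.00161) were also higher in IP.

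*Per3* lay the other way, at -0.16 (SE 0.032, adjusted p = 9.24e-06), and *Nr1d2* at -0.07 (adjusted p = 0.00655, edgeR). *Per3* and *Nr1d2* thus differed in direction from *Per1* and *Nr1d1*, their relatives in the loop. *Arntl* passed narrowly (0.07, adjusted p = 0.0434) and lost the call in 10 of 18 omissions of a library, namely input control replicates 5 and 6, input ethanol 4 and 6, IP control 2, 4 and 6 and IP ethanol 1, 5 and 6 (adjusted p up to 0.137). It also lost the call with DESeq2 (adjusted p = 0.0515), and in edgeR with RLE scaling (0.0579) and with edgeR's own filter on low counts (0.0603). *Per2* (0.03) and *Clock* (-0.01) did not pass. With each dish as a block 47.6% of all genes were called, and 9 of the 10 clock genes, *Per2* among them (0.09, adjusted p = 0.032). In control dishes alone 4 of the 10 were called (44.0% of all genes) and in ethanol dishes alone 6 (42.0%). The calls lost in control dishes were *Dbp* (0.03), *Cry1* (0.08), *Arntl* (0.07) and *Nr1d2* (-0.06, adjusted p = 0.0539), those lost in ethanol dishes *Arntl* (0.05) and *Per3*, and *Per3* stood at -0.23 and -0.11 (adjusted p = 1.20e-06 and 0.0561). With total counts as scaling *Dbp* (0.04), *Arntl* (0.02) and *Cry1* (0.08, adjusted p = 0.0525) were no longer called, and *Clock* was (-0.07, adjusted p = 0.0242). The marker sums given above moved with fraction, and their part in these differences was not tested.

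The deposited table counts read pairs without regard to strand, and a pair that falls on exons of 2 genes is dropped. The libraries were made with a stranded kit, and the single libraries' files also hold counts per strand, so the clock genes that overlap a neighbour could be recounted. *Dbp* overlaps *Sphk2*, a sphingosine kinase gene on the opposite strand, over 539 bases of exon. Over the 18 libraries it had 109024 read pairs unstranded and 193826 on its sense strand, 178% of the former. *Nr1d1* overlaps *Thra*, the thyroid hormone receptor alpha gene on the opposite strand, over 263 bases of exon and had 94651 read pairs unstranded and 113646 on its sense strand, while 53889 pairs in its exons lay on the strand of *Thra*. *Cry2* (with *D930015M05Rik*, 295 bases) and *Arntl* (with *Gm45355*, 33 bases) gained less, to 107% and 108% of the unstranded count. *Per3* lies within the span of *Camta1*, and *Clock* overlaps *Gm43658* and *Ube2n-ps1*, without shared exon bases. *Camta1*, a transcription activator gene on the same strand as *Per3*, had 6.58 ± 0.37 CPM in control and 7.33 ± 0.55 CPM in ethanol IP dishes (SD, n = 6 each) and moved with *Per3* (0.17 in IP and 0.20 in input, adjusted p = 0.0267 and 0.0471), and unspliced *Camta1* reads within *Per3* exons cannot be told apart from *Per3*. For these 2 and the other 4 genes the sense count was 99.6% to 100.0% of the unstranded count.

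On the sense strand *Dbp* ranged from 106 to 114 CPM in control IP dishes and from 130 to 140 CPM in ethanol IP dishes. The groups again did not overlap, and the log2 fold change was 0.29 (SE 0.025, adjusted p = 9.79e-14, edgeR), close to the unstranded value. In input it was 0.22 (SE 0.025, adjusted p = 9.29e-17), so that the difference between fractions narrowed to 0.07 (unadjusted p = 0.102). *Nr1d1* had 68.1 to 73.0 CPM in control and 72.9 to 82.0 CPM in ethanol IP dishes, with log2 fold changes of 0.15 in IP and 0.17 in input. Per kilobase, the sense level of *Dbp* in control IP dishes was 36.6 ± 0.92 CPM per kb (SD, n = 6) and that of *Nr1d1* 22.9 ± 0.53, so *Dbp* led the order by more than the unstranded counts show. *Sphk2* was not called in IP (-0.04, adjusted p = 0.411) and was lower with ethanol in input (-0.11, adjusted p = 0.0343), and *Thra* was not called in either fraction (0.04 and 0.04).

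**Figure D4:**
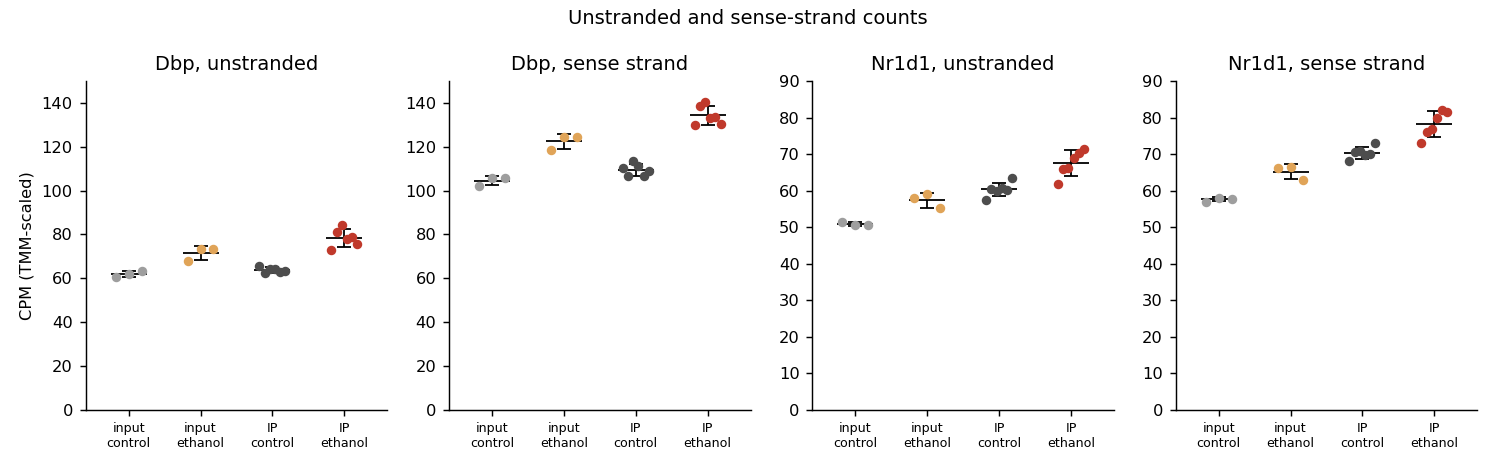
CPM of *Dbp* and *Nr1d1* from unstranded and from sense-strand counts (y axes from 0, the same for each gene), 1 point per library and black bars for mean ± SD (input n = 3, IP n = 6). *Dbp* in control IP dishes moves from 62.3 to 65.8 CPM to 106 to 114 CPM, and the ethanol dishes stay above the control dishes in both counts.

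A list of 20 other genes of the clock system was examined in the same way, and 20 of 20 were tested. In IP 6 were higher, 3 lower and 11 did not pass, against 11.9% higher and 9.48% lower of all genes, with a median log2 fold change of 0.05 against 0.0054. In input 5 were higher, 3 lower and 12 did not pass, against 7.21% and 7.78% of all genes, with a median of 0.04 against -0.00092. The relatives of *Dbp* came first by role. *Tef* went from 114 ± 1.5 to 127 ± 2.3 CPM in IP (SD, n = 6 each, log2 fold change 0.17, adjusted p = 8.81e-08, edgeR), with no overlap between groups. In input its change of 0.08 (adjusted p = 0.0146) was lost without input control replicate 6 (adjusted p = 0.143), without input ethanol replicate 4 (0.0642) and with all 18 libraries in 1 fit (0.0802). *Hlf*, at 3.99 ± 0.46 CPM in control IP dishes, was called in IP (0.24, adjusted p = 0.0245) but kept the call in only 4 of 12 omissions of a library, those of IP control replicates 4 and 5 and IP ethanol replicates 2 and 4, and was not called in input (0.11, adjusted p = 0.544).

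Among the regulators of the loop, *Bhlhe40*, an E-box repressor, rose by 0.16 in IP and 0.22 in input on the log2 scale (adjusted p = 2.59e-06 and 4.11e-11, edgeR), while its relative *Bhlhe41* fell by 0.08 and 0.18 (adjusted p = 0.0228 and 3.64e-08). *Rora*, an activator at ROR elements, rose by 0.13 in IP and 0.16 in input (adjusted p = 0.0031 and 9.11e-05). *Fbxl21*, whose product tags CRY proteins with ubiquitin, rose by 0.26 in IP and 0.33 in input (adjusted p = 0.00107 and 0.00485). *Noct*, which encodes the rhythmic phosphatase nocturnin, had the largest decrease of the list in both fractions. It went from 129 to 134 CPM in control to 106 to 122 CPM in ethanol IP dishes (-0.25, adjusted p = 7.93e-11) and from 98.7 to 103 to 82.4 to 92.6 CPM in input (-0.22, adjusted p = 6.98e-14), with no overlap. *Cipc*, a repressor of CLOCK, was lower in IP only by the test (-0.07, adjusted p = 0.0364, against -0.04 and 0.467 in input), and *Csnk1e*, a kinase of the PER proteins, in input only (-0.12, adjusted p = 0.000253, against -0.07 and 0.103 in IP). The interaction was not called for either.

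**Figure D5:**
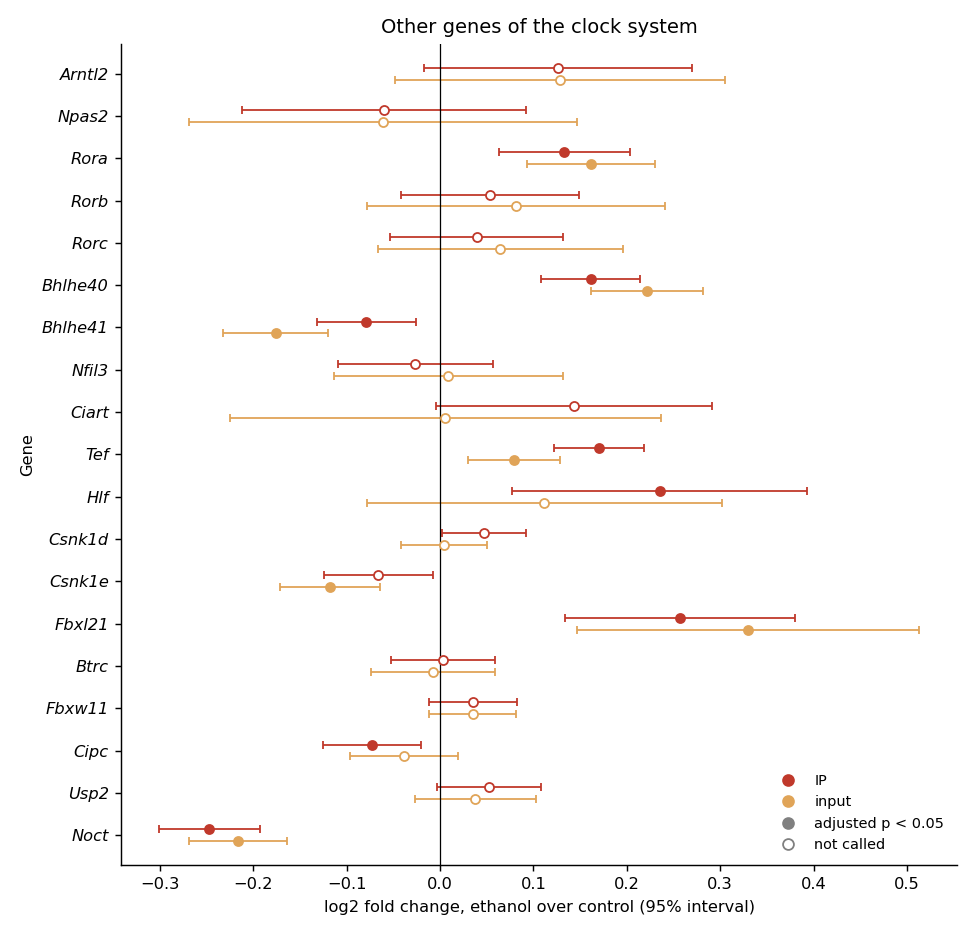
Fitted log2 fold changes, ethanol over control, with 95% intervals for 19 of the 20 other genes of the clock system in IP (red) and input (orange), with filled points at an adjusted p below 0.05. *Noct* lies furthest below 0 in both fractions (-0.25 and -0.22) and *Fbxl21* furthest above (0.26 and 0.33).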

How the data were processed

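RNA-Seq read pairs were counted in 12 IP and 6 input libraries. The authors trimmed the reads (Trimmomatic), aligned them with STAR to GRCm38 with Ensembl annotation, and deposited raw, unnormalized counts per gene, per library and per strand, and as a joint table of unstranded counts, which equals the single files (0 differences). STAR counts uniquely mapped pairs on 1 gene only, and 5.37% to 5.66% of pairs were ambiguous between genes. No versions are given in the sources used here.

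Here, genes whose 18 libraries summed to 10 or more read pairs entered edgeR 4.0.16 (TMM, robust quasi-likelihood test) in R 4.3.3, with Benjamini-Hochberg adjustment over all 24495 genes and a threshold of 0.05. DESeq2 1.42.0, other scalings and filters, sense-strand counts, GC and length trends, minimum folds and omitted libraries were alternatives. The scripts were tested on simulated data. CPM used TMM-scaled totals. Lengths came from GENCODE M21 (GRCm38), promoter windows from RefSeq. IP libraries 4 to 6 share dishes with input, so the dish is a true block between fractions (correlation of deviations 0.034 to 0.206). Control and ethanol dishes share replicate numbers, and the sources used here do not say whether dishes of equal number were handled together. Genes named are the 10 clock genes, genes overlapping them, other clock genes called with ethanol and, for each clock gene, the gene most like it, except items not reported here. The clock genes and lists were chosen with earlier results of these data known.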

Additional observations from a re-analysis of the deposited data

How the results depend on the processing

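The calls of *Dbp*, *Per3*, *Cry2*, *Nr1d1* and *Nr1d2* with ethanol in IP held under every alternative run except the test against a fold of 1.2, and 5 or 6 clock genes were called in each omission of a library. Against that fold 0 clock genes were called with ethanol in IP, 0 in input and 1 in IP vs. input, and in control dishes alone 4 were called in IP vs. input. With the longest transcript as length 5 of the 10 genes kept their rank, and with sense-strand counts, added after seeing the data, 10. With the replicate number as a block (replicate block) 5782 genes were called in IP and 3829 in input, 6 and 5 of them clock genes, and it changed no call of a clock gene. Control and ethanol dishes of a number correlated at -0.149 to 0.399 in IP and 0.0368 to 0.0736 in input. With the dish as a block in IP vs. input, *Clock* had 0.013, and in the difference between fractions *Arntl* 0.0070 and *Nr1d1* 0.040.

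The signs that turned belong to changes near 0 that did not pass in the tests first given above, though in IP vs. input *Per2* passed with the dish as a block (0.09) and *Clock* with total counts (-0.07). With GC and length trends removed, *Per1* had -0.020 in IP, -0.022 in the difference between fractions and *Clock* -0.0098 in input. In IP replicates 1 to 3 *Per1* had -0.025, in replicates 4 to 6 *Arntl* 0.00063. *Per2* in IP vs. input had -0.025 with total counts and -0.044 in control dishes. Over omissions of a library the ranges were, in IP, -0.027 to 0.00092 for *Arntl* and -0.038 to 0.0021 for *Clock*, in input, -0.021 to 0.053 for *Per1* and -0.0098 to 0.050 for *Arntl*, and in the difference between fractions -0.013 to 0.065 for *Per1* and -0.041 to 0.0067 for *Nr1d1*. The causes were not tested. Each clock gene had at least 1097 read pairs in every library, while input had 3 dishes per group.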

Other observations

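The clock genes were also compared between the 12 IP dishes, as deviations of log2 CPM from the treatment means. Of 45 pairs, 0 passed an adjusted p of 0.05 (6 at an unadjusted permutation p below 0.05, smallest adjusted p = 0.128, 100000 permutations within treatment). The highest correlation was that of *Per3* and *Nr1d1*, with Pearson's r = 0.76 (permutation p = 0.0114) and Spearman's rho = 0.75 (permutation p = 0.0186), and r = 0.77 without the 2 dishes farthest from the median. *Per2* and *Per3* had the smallest permutation p of the 45 pairs (0.00736, r = 0.70, rho = 0.66 with permutation p = 0.0237). Their r was 0.57 without 2 dishes and 0.69 once GC and length trends were removed. *Per1* and *Cry1* had r = -0.81 (permutation p = 0.00799, rho = -0.66, permutation p = 0.0316), which went to -0.27 without 2 dishes and so rests on them. *Clock* and *Nr1d2* had r = 0.70 (permutation p = 0.00975, rho = 0.75, permutation p = 0.00696), and r = -0.04 once GC and length trends were removed, an alternative chosen after seeing the data.

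Over the 18 libraries, as deviations from the 4 group means, the gene most like each of 9 clock genes among 11066 genes of at least 5 CPM was *Inf2* for *Per1* (r = 0.83), *Uggt2* for *Per2* (0.86), *Zfp12* for *Per3* (0.84), *Gm1661* for *Cry2* (0.87), *Ncapd3* for *Arntl* (0.84), *Dennd5a* for *Clock* (0.93), *Irf2bpl* for *Nr1d1* (0.83), *Otud6b* for *Nr1d2* (0.91) and *Gas1* for *Dbp* (0.87). These are the highest of many correlations over libraries that share dishes and are given as a description.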
